A study of Mus musculus with 18 samples.

Results

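Gene expression was compared between the midbrain and the hindbrain of the same 6 mice, with 1 library of each region from each mouse. These were 12 of the 18 libraries of the study, chosen as all midbrain and all hindbrain libraries, and the 6 forebrain libraries served only as a reference for marker levels. The 6 mice were littermates killed at postnatal day 25 (P25). Of these, 3 were wild-type and 3 were Fmr1CRE, a knock-in made by CRISPR/Cas9 on a C57BL/6 background that carries a single base change in a cis-regulatory element of *Fmr1*, the gene that is silenced in Fragile X syndrome. The study was designed to compare the genotypes; here both genotypes entered and the question was which genes differed between the regions of a mouse. The brain was divided by dissection, so each library is a mixture of all cells of its piece, and fewer cells of a type and less RNA per cell cannot be told apart in such data. The source used here does not state where the cuts were made or which of the 2 sequencing pools of 9 held which library, and any part of the pool in a difference was not tested.

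The midbrain holds the dopamine neurons of the substantia nigra and ventral tegmental area, the oculomotor nuclei, and the superior and inferior colliculi, and its neurons keep some of the transcription factors that patterned it in the embryo. The hindbrain comprises the cerebellum, pons and medulla, with cranial motor nuclei, glycinergic interneurons and heavily myelinated tracts. Hox genes, which are laid out in 4 clusters, are read in nested domains along the body axis, and their front limits lie within the hindbrain, so midbrain and forebrain lie ahead of them.

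The deposited values were estimated read counts per gene, between 22455512 and 28061185 per library, and are given here per 1000000 counts of the library after TMM scaling (CPM). Fold changes are log2 ratios of midbrain over hindbrain from edgeR's quasi-likelihood fit with the mouse as block, positive where midbrain was higher. A gene was called at a Benjamini-Hochberg adjusted p under 0.05 over the 18645 genes tested, and groups are said not to overlap where all 6 libraries of one region lay above all 6 of the other. The share of counts on mitochondrial genes lay between 7.93% and 9.64% in midbrain and between 10.8% and 14.0% in hindbrain, so this share was higher in hindbrain in all mice. No pair of libraries of a group agreed within sampling noise.

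The labels were checked against markers first, and 3 departures touch the results. Markers of cortical, hippocampal and striatal neurons were high in every midbrain library. The 32 genes of that list summed to between 3281 and 5124 CPM in midbrain and between 877 and 1009 CPM in hindbrain, beside 7003 to 11005 CPM in forebrain on a scale set over all 18 libraries. Cerebellar genes were present in the midbrain libraries too: *Gabra6*, the receptor subunit of cerebellar granule neurons, lay between 33.8 and 94.8 CPM there, against a median of 0.268 CPM in forebrain. Last, some pontine genes lay higher in the midbrain library of 5 mice, although the pons is part of the hindbrain. In Fmr1CRE replicate 2 they lay higher in the hindbrain library, which is described with those genes. How much tissue each library took from a neighbouring region was not tested, so "midbrain" and "hindbrain" below mean the libraries so labelled.

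Midbrain and hindbrain differed in a large share of genes. Of the 18645 genes tested, 9428 were called, 50.6%, with 4650 (24.9%) higher in midbrain and 4778 (25.6%) higher in hindbrain. The slight excess towards hindbrain turned around in DESeq2 (4857 and 4476) and in all 6 fits with a mouse left out. Most differences were small: the median log2 fold change was 0.71 among genes higher in midbrain and -0.58 among genes higher in hindbrain, while the median over all genes tested was -0.04. Large differences were more often towards midbrain. Against a threshold of a 2-fold difference (edgeR's glmTreat), 874 genes (4.69%) passed, of which 671 (3.6%) were higher in midbrain and 203 (1.09%) in hindbrain. The 203 became 322 without Fmr1CRE replicate 2. Counts of called members in the gene lists below stand beside the shares of all genes given here.

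All 6 mice went the same way in 45.7% of all genes tested. Among genes chosen as called on these same mice the share was 84.4%, and 99.0% among those past the 2-fold threshold, which the choice itself raises. Over all genes tested, the 2 regions did not overlap in 5364 genes (28.8%). At the other end, the 95% confidence interval of 1991 genes (10.7%) lay within a 1.25-fold difference in either direction. By class of gene, protein-coding genes were called most often, 53.3% of 15316, with 4324 higher in midbrain and 3847 in hindbrain. Long noncoding RNAs went the other way, with 224 higher in midbrain and 474 in hindbrain of 1778 tested, as did pseudogenes, with 38 and 215 of 773. The number of genes with a count also differed, at 26131 to 27387 in midbrain and 26722 to 28574 in hindbrain. It was higher in hindbrain in every mouse but Fmr1CRE replicate 2 (26722 against 26735 in midbrain). Its part in these class counts was not tested.

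**Figure D1:**
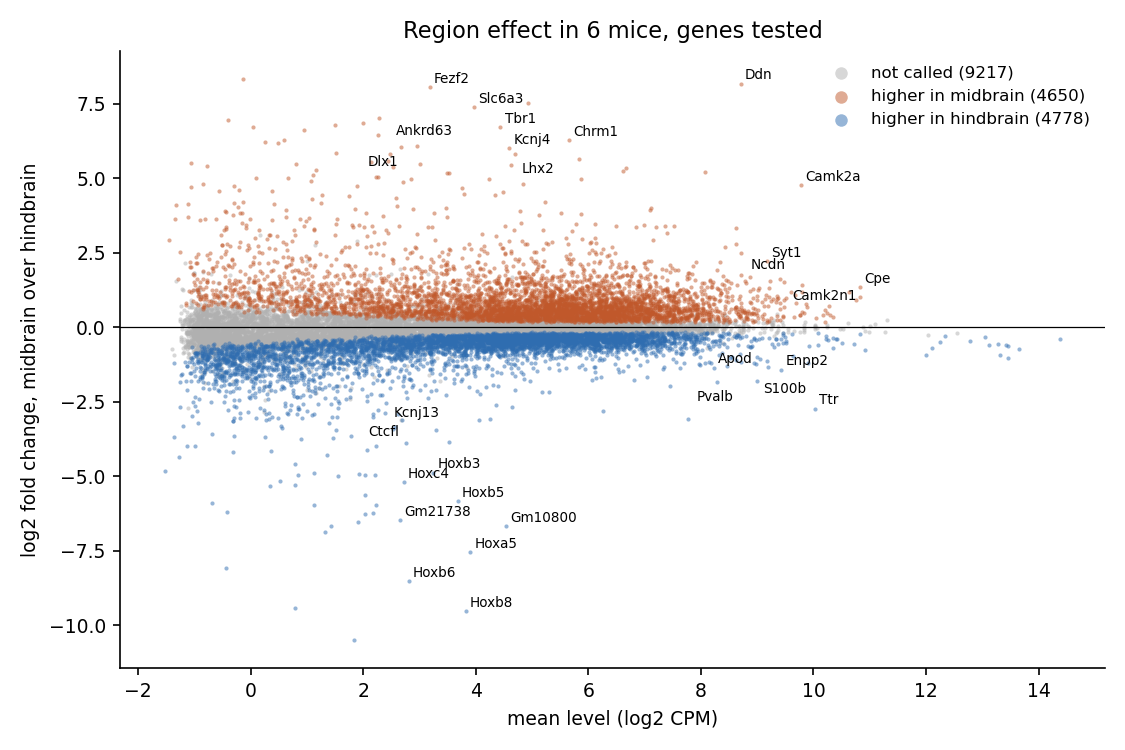
Log2 fold change of midbrain over hindbrain against the mean level (log2 CPM) for the 18645 genes tested, each point a gene, coloured by whether and in which direction edgeR called it; genes among the largest or most abundant in each direction are named. The largest differences run from *Hoxb7* at -10.48 to above 8 for *Ddn*, and points beyond 5 in either direction are mostly genes near or at 0 in one region.

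The genes highest in midbrain relative to hindbrain were mainly genes of the forebrain. *Ddn*, which encodes dendrin, a protein of dendrites and synapses, lay between 608 and 1003 CPM in midbrain (median 874) and between 0.850 and 14.8 CPM in hindbrain (median 2.02). Its log2 fold change was 8.17 (SE 0.610, edgeR adjusted p = 2.53e-05), and its forebrain median was 1536 CPM. The regions did not overlap, and the highest hindbrain value, 14.8 CPM, belonged to wild-type replicate 3.

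Other leading genes had the same profile. *Fezf2*, a factor of deep-layer cortical projection neurons, had a median of 18.3 CPM in midbrain and 0.0355 CPM in hindbrain, with 17.3 CPM in forebrain, and *Tbr1*, a factor of glutamatergic cortical neurons, had medians of 43.6 and 0.346 CPM. *Dlx1*, a factor of forebrain inhibitory neurons, had a log2 fold change of 6.04, and *Lhx2*, a factor of cortex and thalamus, of 5.81. *Chrm1*, the M1 muscarinic receptor, *Kcnj4*, an inward rectifier potassium channel, and *Ankrd63* lay at 6.27, 6.00 and 6.09. All of these were higher in midbrain in 6 of 6 mice, and the forebrain median of each except *Fezf2* exceeded its midbrain median.

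Of the 32 cortical, hippocampal and striatal genes, all were tested, 28 were higher in midbrain and 2 in hindbrain, and their median log2 fold change was 3.38, against -0.04 over all genes. The 2 higher in hindbrain were *Lamp5*, a lysosome-associated protein of cortical interneurons (-1.49), and *Penk*, the enkephalin precursor (-0.56), which kept its call in 2 of the 6 fits with a mouse left out. *Camk2a*, the kinase subunit of forebrain excitatory synapses, lay between 1105 and 2190 CPM in midbrain (median 1898) and between 44.9 and 74.0 CPM in hindbrain. The summed level of this list is made of these same genes, and the part of forebrain tissue in the differences between the regions was not tested.

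Thalamic genes went the same way, with 13 of 20 higher in midbrain, 2 higher in hindbrain and a median of 0.68. The 2 became 1 without Fmr1CRE replicate 1, Fmr1CRE replicate 3 or wild-type replicate 1. *Tcf7l2*, a transcription factor of thalamus and tectum, lay between 47.4 and 90.2 CPM in midbrain and between 3.73 and 7.60 CPM in hindbrain, with 23.3 CPM at the median in forebrain. Its midbrain level was therefore above both other regions. Of 24 hypothalamic genes, 10 were tested, 4 were higher in midbrain and 3 in hindbrain. *Pmch*, the precursor of melanin-concentrating hormone, spread widely over the midbrain libraries, from 0.243 to 60.0 CPM (median 18.0), against 0.176 to 0.562 CPM in hindbrain. It was at 25.6, 35.7 and 60.0 CPM in the midbrain of the Fmr1CRE mice, and at 10.3, 0.496 and 0.243 CPM in wild-type replicates 1, 2 and 3. *Avp*, the vasopressin precursor, was at 6.57 CPM or above in the midbrain of all Fmr1CRE mice and at 0.703 CPM or below in that of all wild-type mice. *Nkx2-1* did not split this way. Its midbrain level was 2.15 CPM in wild-type replicate 1, 2.07 to 2.19 CPM in the Fmr1CRE mice, and lower in wild-type replicates 2 and 3. For a region effect that differed between genotypes, edgeR called 0 of 18645 genes and DESeq2 called 42. The parts of genotype and of hypothalamic tissue in these levels were not tested.

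Genes that mark the midbrain itself were also among the largest differences. *Slc6a3*, the dopamine transporter and a defining gene of midbrain dopamine neurons (GRCm38 chr13:73536747-73578672, plus strand), lay between 20.8 and 45.8 CPM in midbrain (median 27.8), between 0.0739 and 0.295 CPM in hindbrain (median 0.183), and at a median of 0.338 CPM in forebrain. Every midbrain library lay above every hindbrain library and above that forebrain median. The log2 fold change was 7.39 (SE 0.305, edgeR adjusted p = 3.61e-06), and it was 7.57 in the wild-type and 7.26 in the Fmr1CRE mice.

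Of the 16 dopaminergic genes, 15 were tested, 10 were higher in midbrain, 2 were higher in hindbrain and 3 were not called, with a median of 1.13. The levels of the 16 summed to 386 to 507 CPM in midbrain and to 420 to 510 CPM in hindbrain. In hindbrain *Aldh1a1* alone lay between 308 and 408 CPM. *Foxa2*, a factor that dopamine neurons need to form and survive, had a log2 fold change of 4.14, and *Nr4a2*, which drives the dopaminergic program, of 2.80. *Chrna6* and *Chrnb3*, the nicotinic receptor subunits of dopamine terminals, lay at 3.43 and 3.65. *Th*, the rate-limiting enzyme of dopamine and noradrenaline synthesis, lay between 18.0 and 37.0 CPM in midbrain and between 4.91 and 15.8 CPM in hindbrain, and its log2 fold change was 1.69 (SE 0.299, edgeR adjusted p = 0.00196). The highest hindbrain value of *Th*, 15.8 CPM, was that of Fmr1CRE replicate 2. The 2 members higher in hindbrain were *Aldh1a1*, an aldehyde dehydrogenase also found in other cells (-1.26, SE 0.0711), and *Lmx1a*, a factor of roof plate and choroid plexus as well as dopamine neurons (-0.49). *Lmx1a* kept its call in 1 of the 6 fits with a mouse left out, and was not called by DESeq2 (adjusted p = 0.128) or without the block (adjusted p = 0.0638).

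The transcription factors of the midbrain split by factor. Of 27 listed, 24 were tested, 13 were higher in midbrain and 5 in hindbrain, with a median of 1.36; their levels summed to 146 to 237 CPM in midbrain and 78.3 to 113 CPM in hindbrain. *Tfap2d*, a factor of the superior colliculus, lay between 1.70 and 2.64 CPM in midbrain and between 0 and 0.111 CPM in hindbrain (log2 fold change 6.21). *Otx1*, which helps place the boundary between midbrain and hindbrain (5.26), *Foxa1*, a partner of *Foxa2* (4.58), and *Pax7*, a factor of the dorsal midbrain (4.43), followed. *Gata3*, a factor of midbrain inhibitory neurons, lay at 2.38. *Otx2*, also on this list, lay between 4.66 and 8.47 CPM in midbrain and between 5.54 and 13.2 CPM in hindbrain, with overlap. *Pou4f1* lay between 2.91 and 6.04 CPM in midbrain and between 6.87 and 14.1 CPM in hindbrain.

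The engrailed genes, which pattern both sides of that boundary, went in opposite directions. *En1* lay between 3.71 and 9.14 CPM in midbrain and between 1.32 and 3.03 CPM in hindbrain (log2 fold change 1.82, SE 0.301), with no overlap. *En2*, which cerebellar neurons express, lay between 9.39 and 23.5 CPM in midbrain and between 20.4 and 42.3 CPM in hindbrain (-0.84, SE 0.271, edgeR adjusted p = 0.0302), with overlap. *Pax5*, a further factor of the boundary, ranged from 2.19 to 54.7 CPM over the midbrain libraries and from 0.185 to 3.28 CPM over the hindbrain libraries (3.998, SE 0.823). The 5 members higher in hindbrain fell to 3 without Fmr1CRE replicate 1, 3 without wild-type replicate 1 and 2 without Fmr1CRE replicate 3.

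The opposite end of the comparison was led by Hox genes, with no exception among those that could be tested. All 20 of the 39 Hox genes that passed the filter on low counts were higher in hindbrain, all 20 were past the 2-fold threshold, and none overlapped between the regions. A gene could pass that filter through its hindbrain libraries alone, so these counts follow in part from the filter, and all 39 genes were also summed: 151 to 256 CPM in hindbrain (median 210), 0.833 to 7.38 CPM in midbrain (median 3.79) and 0.241 to 0.714 CPM in forebrain. The median log2 fold change of the 20 was -5.74, and it lay between -6.30 and -3.62 over the single mice. The 19 others had at most 5 counts in any midbrain library and at most 109 in any hindbrain library.

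*Hoxb8* (GRCm38 chr11:96281905-96285315, plus strand) lay between 7.42 and 38.6 CPM in hindbrain (median 32.5) and between 0 and 0.0827 CPM in midbrain (median 0.0220), with a log2 fold change of -9.53 (SE 0.336, edgeR adjusted p = 2.56e-06). *Hoxa5*, from another cluster (chr6:52201754-52204587, minus strand), lay between 26.0 and 37.6 CPM in hindbrain and between 0 and 0.439 CPM in midbrain (-7.55, SE 0.371). *Hoxb6*, *Hoxb5*, *Hoxc4* and *Hoxb3* followed at -8.50, -5.84, -5.20 and -4.88. *Hoxb7* and *Hoxa6* had 0 counts in all 6 midbrain libraries. Against a floor of 3 counts over the midbrain libraries, *Hoxb7* was at least 347-fold higher in hindbrain, and *Hoxa6* at least 65.3-fold higher. Their fitted fold changes depend on the prior count, and with both at these bounds the median of the 20 was still -5.74.

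The hindbrain levels changed with position along the clusters, though not in steady order. Hox genes of the same number in different clusters are paralogues, and low numbers have front limits nearest the midbrain. Per kilobase of exon (RPKM), the hindbrain level summed over paralogues was 1.40 in group 1, 4.49 in group 2, 7.25 in group 3 and 14.2 in group 4. It was highest in group 5, at 27.6, and then 9.36, 6.15 and 12.6 in groups 6, 7 and 8. The groups held between 2 and 4 paralogues, and *Hoxb8* alone gave 10.7 of the sum in group 8. Group 9 summed to 0.645, and no group from 10 to 13 exceeded 0.0787. The same sums in midbrain were at most 0.371, in group 4.

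The hindbrain library of wild-type replicate 1 stood below the others in the higher-numbered genes. Its *Hoxb8* was 7.42 CPM, where the other 5 hindbrain libraries lay at 24.6 or above, its *Hoxb7* was 2.94 CPM against 6.80 or above, its *Hoxa7* was 0.657 CPM against 4.53 or above, and its *Hoxd8* was 0.425 CPM against 3.40 or above. In lower-numbered genes the same library lay with the rest: its *Hoxa5* was 26.0 CPM among 26.0 to 37.6 CPM, its *Hoxb3* 17.0 CPM among 16.1 to 21.9 CPM, and its *Hoxa2* 4.21 CPM among 3.54 to 4.57 CPM. Without that mouse *Hoxb8* had a log2 fold change of -9.26, and all 20 genes were still called.

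**Figure D2:**
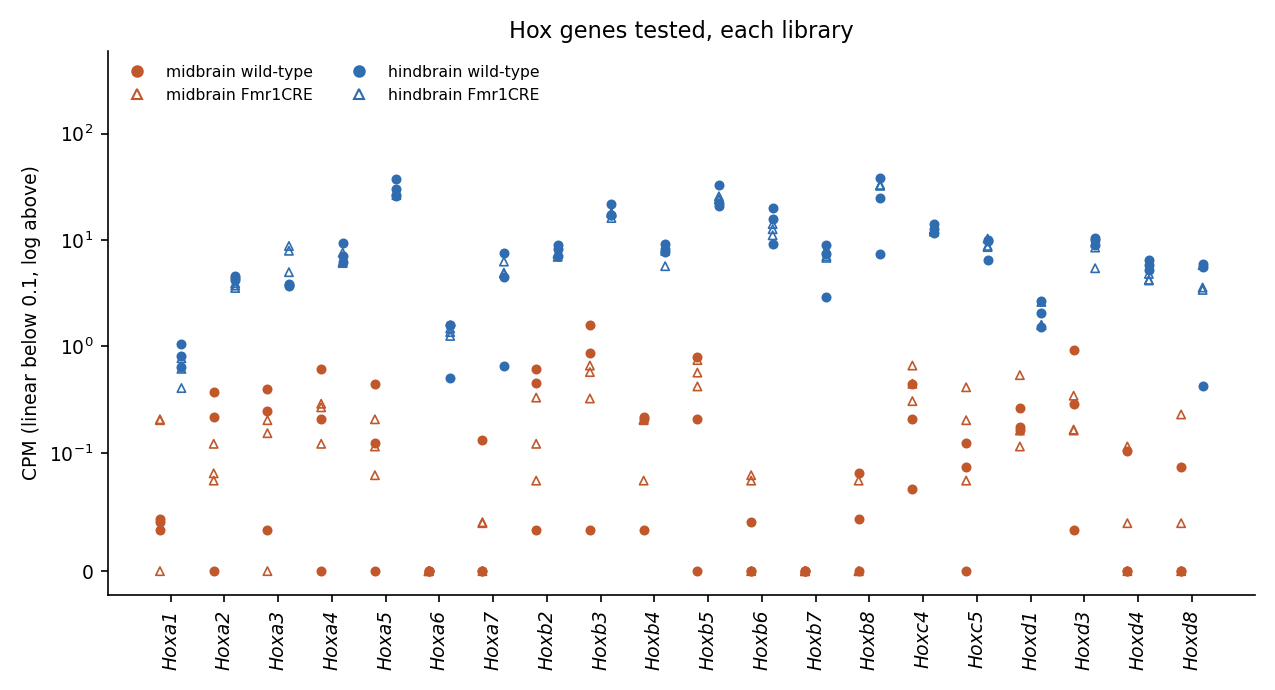
Level (CPM, linear below 0.1 and logarithmic above) of the 20 Hox genes tested in each library, midbrain and hindbrain side by side, filled circles for wild-type and open triangles for Fmr1CRE. Every hindbrain point of a gene lies above every midbrain point of it, and the low wild-type hindbrain point in *Hoxa7*, *Hoxb7*, *Hoxb8* and *Hoxd8* is wild-type replicate 1.

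The promoters of 4 leading genes are shown, since these genes mark the ends of the comparison: *Hoxb8* and *Hoxa5* are 2 of the Hox genes just described, *Fezf2* is a forebrain factor and *Slc6a3* the dopamine transporter. The sequences are from RefSeq on GRCm38.p6, run from 250 bases before to 50 bases after the gene's start, and are written 5′ to 3′ on the gene's strand. Capitals mark a TATA box (TATAAA) or a GC box on either strand, where the GC box is read as the letters GGGCGG. A core that many homeodomain proteins bind was searched as well, namely TAATTA on either strand.
*Hoxb8*, chr11:96281655-96281954, plus strand: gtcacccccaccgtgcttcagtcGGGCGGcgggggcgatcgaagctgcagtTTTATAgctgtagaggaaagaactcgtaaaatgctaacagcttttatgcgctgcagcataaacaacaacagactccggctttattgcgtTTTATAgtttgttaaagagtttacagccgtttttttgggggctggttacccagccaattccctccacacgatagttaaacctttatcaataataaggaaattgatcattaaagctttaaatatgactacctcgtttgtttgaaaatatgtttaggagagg
*Hoxa5*, chr6:52204538-52204837, minus strand: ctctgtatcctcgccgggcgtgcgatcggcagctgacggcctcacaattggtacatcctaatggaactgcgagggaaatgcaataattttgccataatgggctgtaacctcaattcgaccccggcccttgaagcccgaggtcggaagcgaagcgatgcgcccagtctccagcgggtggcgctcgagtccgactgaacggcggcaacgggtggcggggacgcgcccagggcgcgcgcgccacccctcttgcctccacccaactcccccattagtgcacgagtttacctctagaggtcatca
*Fezf2*, chr14:12345816-12346115, minus strand: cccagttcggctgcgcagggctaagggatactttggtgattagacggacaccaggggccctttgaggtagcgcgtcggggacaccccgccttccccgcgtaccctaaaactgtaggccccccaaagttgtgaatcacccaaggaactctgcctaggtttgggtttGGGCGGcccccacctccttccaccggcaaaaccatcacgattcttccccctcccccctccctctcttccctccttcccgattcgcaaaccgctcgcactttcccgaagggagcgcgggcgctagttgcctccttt
*Slc6a3*, chr13:73536497-73536796, plus strand: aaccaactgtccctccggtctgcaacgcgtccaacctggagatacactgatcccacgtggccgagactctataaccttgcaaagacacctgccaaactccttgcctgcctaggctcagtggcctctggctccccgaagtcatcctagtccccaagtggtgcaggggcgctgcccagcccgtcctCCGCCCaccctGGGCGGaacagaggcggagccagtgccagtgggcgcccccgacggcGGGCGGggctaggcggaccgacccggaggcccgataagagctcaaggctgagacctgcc
*Hoxb8* holds the TATA letters at 2 places, both as TTTATA on the other strand, and the GC box at 1. *Fezf2* holds the GC box at 1 place and *Slc6a3* at 3, and *Hoxa5* holds neither. Whether any of these letters works as a promoter element was not tested. The homeodomain core is in none of these 4 windows, and no marked motif overlaps another. Over all 32851 promoters in the table, 13.6% hold the TATA box, 35.7% the GC box and 5.29% the homeodomain core on either strand. The CG pairs number 13 in *Hoxb8*, 29 in *Hoxa5*, 20 in *Fezf2* and 20 in *Slc6a3*, against a median of 7 over all promoters. Of 19 genes with the largest differences, 11 had a promoter in the table.

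Noradrenergic and other pontine genes depended on the mouse. *Slc6a2*, the noradrenaline transporter of the locus coeruleus in the dorsal pons, was at 5.09 CPM or above in the midbrain and at 2.40 CPM or below in the hindbrain of 5 mice. In Fmr1CRE replicate 2 it was at 0.612 CPM in midbrain and 17.4 CPM in hindbrain. *Dbh*, which makes noradrenaline from dopamine, was likewise 0.766 CPM in the midbrain and 15.4 CPM in the hindbrain of that mouse, against 3.35 to 10.5 CPM and 2.28 to 3.79 CPM in the others. *Rln3*, the peptide relaxin-3 of the nucleus incertus in the pons, was 0.306 and 8.56 CPM in that mouse, against at least 2.11 CPM in midbrain and at most 0.923 CPM in hindbrain in the others.

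Over all 6 mice edgeR did not call these genes: the log2 fold change was 1.79 for *Slc6a2* (SE 0.980, adjusted p = 0.159), 0.49 for *Dbh* (SE 0.709, adjusted p = 0.597) and 2.77 for *Rln3* (SE 1.32, adjusted p = 0.111). Without Fmr1CRE replicate 2 they were 2.56 (adjusted p = 0.00118), 1.12 (adjusted p = 0.0101) and 3.97 (adjusted p = 0.00228), all higher in midbrain. That mouse was picked here on the values of these same genes, so these adjusted p-values are not a separate test of them. As the pons belongs to the hindbrain, this describes the libraries labelled midbrain and not the midbrain itself. Whether the cuts differed between mice was not tested. Of the 10 noradrenergic genes, 4 were higher in midbrain and 4 in hindbrain over all mice, and 6 and 4 without that mouse. The 4 higher in midbrain became 2 without each of Fmr1CRE replicates 1 and 3 and of wild-type replicates 1 and 2. Those higher in hindbrain included *Phox2a* (-2.41), a factor of noradrenergic and visceral motor neurons, *Hoxb2* (-4.94) and the peptide precursor *Gal* (-1.46).

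Serotonergic genes showed the same mouse. *Tph2*, the enzyme that makes serotonin in the raphe nuclei, lay between 24.3 and 33.4 CPM in the midbrain and between 8.58 and 18.4 CPM in the hindbrain of 5 mice, and at 9.03 and 23.9 CPM in Fmr1CRE replicate 2. Its log2 fold change was 0.72 over all mice (SE 0.338, edgeR adjusted p = 0.105) and 1.12 without that mouse (adjusted p = 0.000352). The last adjusted p is likewise not a separate test, as *Tph2* also ran the other way in that mouse. The serotonin transporter *Slc6a4* lay at 1.12 over all mice (adjusted p = 0.0193), and it lost its call without wild-type replicate 1, wild-type replicate 2 or Fmr1CRE replicate 3 (adjusted p at most 0.0582). Of 12 serotonergic genes, 8 were higher in midbrain and 0 in hindbrain by edgeR, 9 and 0 by DESeq2, with a median of 1.02. The 8 became 10 without Fmr1CRE replicate 2, 5 without Fmr1CRE replicate 1 or wild-type replicate 2, and 4 without wild-type replicate 1 or Fmr1CRE replicate 3. The widest contrast of the list was that of *Crym*, at 45.7 to 64.9 CPM in midbrain and 0.572 to 3.37 CPM in hindbrain, and not that of *Tph2* or *Slc6a4*.

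Not all regional genes of this mouse stood apart. In Fmr1CRE replicate 2 *Slc6a3* was at 21.4 CPM in midbrain and 0.295 CPM in hindbrain, and *Hoxb8* at 0.0766 and 32.8 CPM, as in the other mice. *Pax7* was 1.99 CPM in its midbrain, the lowest of the 6, and 0.959 CPM in its hindbrain, the highest of the 6. The summed Bergmann glia genes of this mouse were at 1349 CPM in midbrain and 1071 CPM in hindbrain. In the other 5 mice the hindbrain sum was the higher, in wild-type replicate 2 only by 1192.38 against 1191.73 CPM. Purkinje cell genes summed higher in midbrain in this mouse (3324 against 3014 CPM) and in wild-type replicate 3 (3412 against 3211 CPM). Granule neuron genes did so in this mouse and in wild-type replicates 2 and 3, so such a reversal was not particular to it. In all, 10 genes differed in direction between this mouse and all 5 others by at least 2-fold each way, 3 of them lower in midbrain in this mouse alone, *Slc6a2*, *Rln3* and *Npcd*, the last named after its values were seen. In each of the other mice such genes numbered between 0 and 6.

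**Figure D3:**
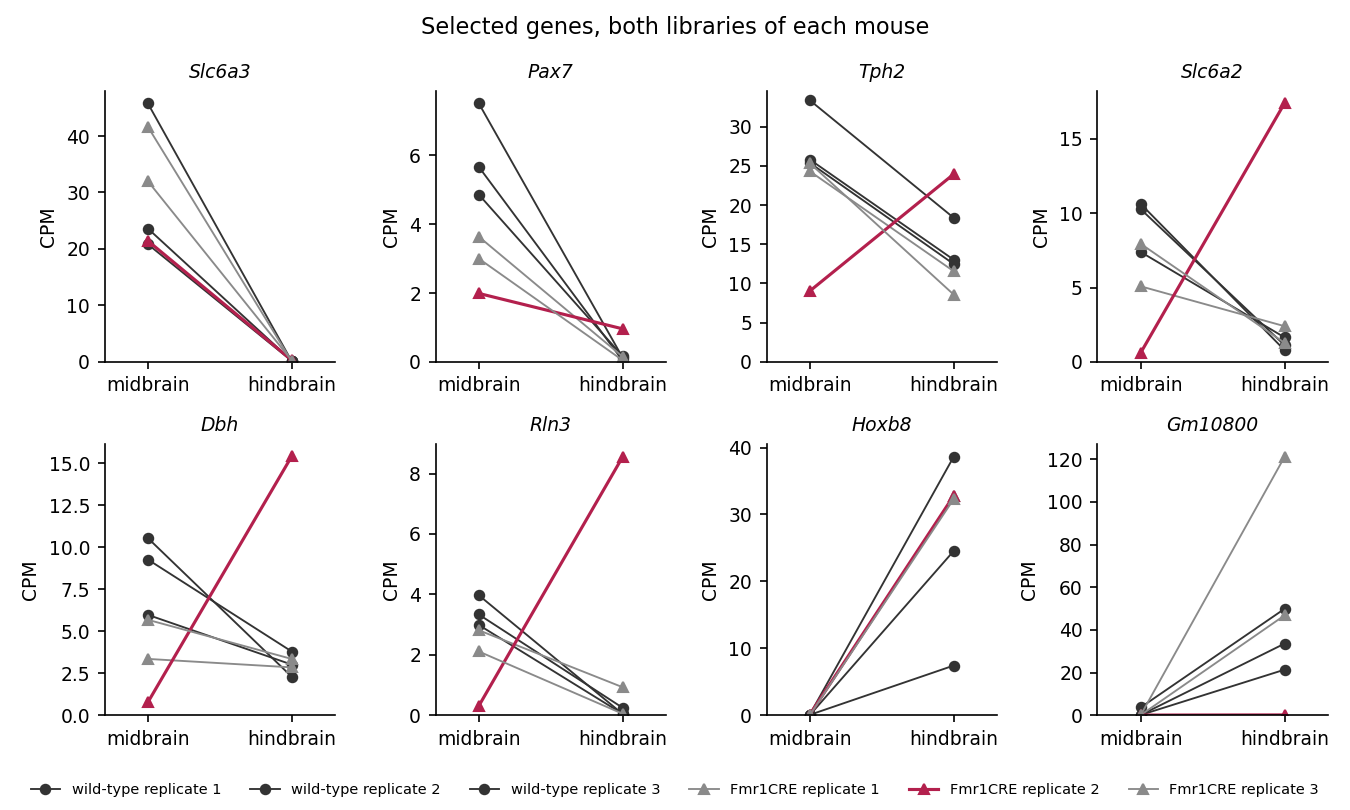
Level (CPM) of 8 genes in the midbrain and hindbrain library of each mouse, with a line for each mouse, circles for wild-type, triangles for Fmr1CRE and Fmr1CRE replicate 2 in red. *Slc6a2*, *Dbh*, *Rln3* and *Tph2* lie higher in hindbrain in Fmr1CRE replicate 2 and higher in midbrain in the other 5 mice, *Slc6a3* and *Pax7* lie higher in midbrain and *Hoxb8* higher in hindbrain in all 6, and *Gm10800* is high in hindbrain in the 5 mice other than Fmr1CRE replicate 2.

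Cholinergic and cranial motor neuron genes were higher in hindbrain, in 10 of the 12 tested and in 0 the other way by edgeR, with a median of -2.12. *Calca*, the precursor of calcitonin gene-related peptide in motor and sensory neurons, lay between 9.62 and 19.6 CPM in hindbrain and between 2.41 and 4.48 CPM in midbrain (log2 fold change -2.16, SE 0.229). *Prph*, the intermediate filament of motor neurons, lay between 20.7 and 32.1 CPM and between 3.52 and 8.27 CPM (-2.12, SE 0.193). Neither gene overlapped between the regions. *Chat*, which makes acetylcholine, lay between 3.55 and 20.9 CPM in hindbrain and between 1.46 and 8.85 CPM in midbrain (-2.12, edgeR adjusted p = 0.0170), with 5 of 6 mice in that direction. It lost its call without Fmr1CRE replicate 1 (adjusted p = 0.0512), without Fmr1CRE replicate 3 (0.0524) or without wild-type replicate 3 (0.0508). *Slc18a3*, the vesicular acetylcholine transporter, lies within the *Chat* gene, so reads of the overlapping part may be shared between them, and it was at -1.69.

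The transmitter systems split in the same manner. *Slc6a5*, the glycine transporter of glycinergic neurons, lay between 90.8 and 178 CPM in hindbrain (median 123) and between 8.20 and 45.5 CPM in midbrain (median 15.7), a log2 fold change of -2.80 (SE 0.468, edgeR adjusted p = 0.00148). *Glra1*, the adult glycine receptor subunit, was higher in hindbrain too (-1.49), while *Glra2*, the early subunit, and *Glra3* were higher in midbrain (0.90 and 0.82). Over the 10 glycinergic genes, 2 were higher in midbrain and 3 in hindbrain, with a median of -0.08, a called share near the 50.6% of all genes.

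Of the vesicular glutamate transporters, *Slc17a7* (VGLUT1), used by cortex and cerebellar granule cells, lay between 451 and 868 CPM in midbrain and between 94.3 and 195 CPM in hindbrain (2.49, SE 0.217). *Slc17a6* (VGLUT2), used by most brainstem neurons, had medians of 165 CPM in midbrain and 154 CPM in hindbrain, and a log2 fold change of 0.06 with a 95% confidence interval from -0.20 to 0.33. The vesicular GABA transporter *Slc32a1*, shared by GABA and glycine neurons, lay at -0.02, with an interval from -0.22 to 0.17. *Gad2*, which makes GABA, was higher in midbrain (1.03, SE 0.0914), and so was *Gad1* (0.58, SE 0.108). Over all 16 vesicular transporters and synthesis enzymes of transmitters, 8 were higher in midbrain and 3 in hindbrain, with a median of 0.54.

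Receptor subunits were mostly higher in midbrain, apart from a few. Of 16 GABA-A receptor subunits tested, 10 were higher in midbrain and 1 in hindbrain, with a median of 0.61. The 1 was *Gabra6* (-1.67, SE 0.382), while *Gabra4*, a subunit of forebrain neurons, led the other way (1.38, SE 0.0782). Of 18 ionotropic glutamate receptor subunits, 13 were higher in midbrain and 2 in hindbrain, with a median of 0.66. The NMDA receptor subunits *Grin2b* (2.91, SE 0.413) and *Grin2a* (1.97, SE 0.112) led. *Grin2b* ranged from 96.5 to 503 CPM in midbrain, where the highest value was that of Fmr1CRE replicate 2, and from 12.8 to 52.3 CPM in hindbrain. Those higher in hindbrain were *Grin3b*, an NMDA subunit of motor neurons (-2.19), and *Gria4*, the AMPA subunit of fast synapses (-0.71), and DESeq2 called 4 in that direction, as did edgeR without the block.

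Cerebellar genes were higher in hindbrain as a tendency with many exceptions. Of 28 granule neuron genes tested, 13 were higher in hindbrain and 7 in midbrain, with a median of -0.59. *Gabra6* lay between 126 and 333 CPM in hindbrain and between 33.8 and 94.8 CPM in midbrain, with no overlap. *Zic4* and *Pax6*, factors of granule neuron precursors, were at -1.38 and -1.36. The 13 became 6 without wild-type replicate 1, 6 without Fmr1CRE replicate 3 and 7 without Fmr1CRE replicate 1. Members higher in midbrain, such as *Slc17a7*, *Neurod2* (0.71) and *Nfix* (0.80), are also genes of the forebrain.

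Of 26 Purkinje cell genes, 15 were higher in hindbrain and 3 in midbrain, with a median of -0.52, and the 15 became 9 without Fmr1CRE replicate 1 or Fmr1CRE replicate 3. *Pcp2*, which is nearly restricted to Purkinje cells in brain, lay between 103 and 248 CPM in hindbrain and between 25.8 and 92.2 CPM in midbrain (-1.77, SE 0.355). *Pvalb*, the calcium buffer of Purkinje and fast-firing neurons, lay between 319 and 663 CPM and between 91.3 and 211 CPM (-1.83, SE 0.251). Of the 9 Bergmann glia genes, 5 were higher in hindbrain and 3 in midbrain, and of 11 genes of cerebellar interneurons and unipolar brush cells, 4 and 2. The called share of the last list lay near the 50.6% of all genes tested.

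Genes of fast-firing and long-axon neurons had no common direction, with 12 of 31 higher in midbrain, 10 higher in hindbrain and a median of 0.10. Within this list, paralogues of the release machinery went opposite ways. *Syt1*, the calcium sensor of forebrain synapses, lay between 784 and 1057 CPM in midbrain and between 178 and 226 CPM in hindbrain (2.23, SE 0.104), while *Syt2*, the sensor of brainstem synapses, lay between 125 and 213 CPM and between 222 and 300 CPM (-0.66, SE 0.165). *Vamp2* lay at 1.24 and *Vamp1* at -1.08, and the sodium channel subunits *Scn3b* at 2.15 and *Scn4b* at -0.75. The neurofilament genes of thick axons, *Nefh* (-1.24), *Nefm* (-1.002) and *Nefl* (-0.95), were higher in hindbrain in all mice. *Nefm* and *Nefl* overlap on opposite strands of chromosome 14, and reads of the overlap may be shared between them.

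Perineuronal net genes, which coat fast-firing neurons, were higher in midbrain in 7 of 16 and in hindbrain in 1, with a median of 0.68. The other 8 were not called, and over all genes tested 50.6% were called, 24.9% higher in midbrain and 25.6% in hindbrain. *Nptx2*, an activity-dependent synaptic pentraxin (2.61, SE 0.162), and *Ncan*, the proteoglycan neurocan (1.68, SE 0.174), led. The 1 was *Hapln2*, a link protein at the nodes of Ranvier (-1.71, SE 0.150). *Acan*, the core proteoglycan of these nets, lay at 0.01 and was not called.

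**Figure D4:**
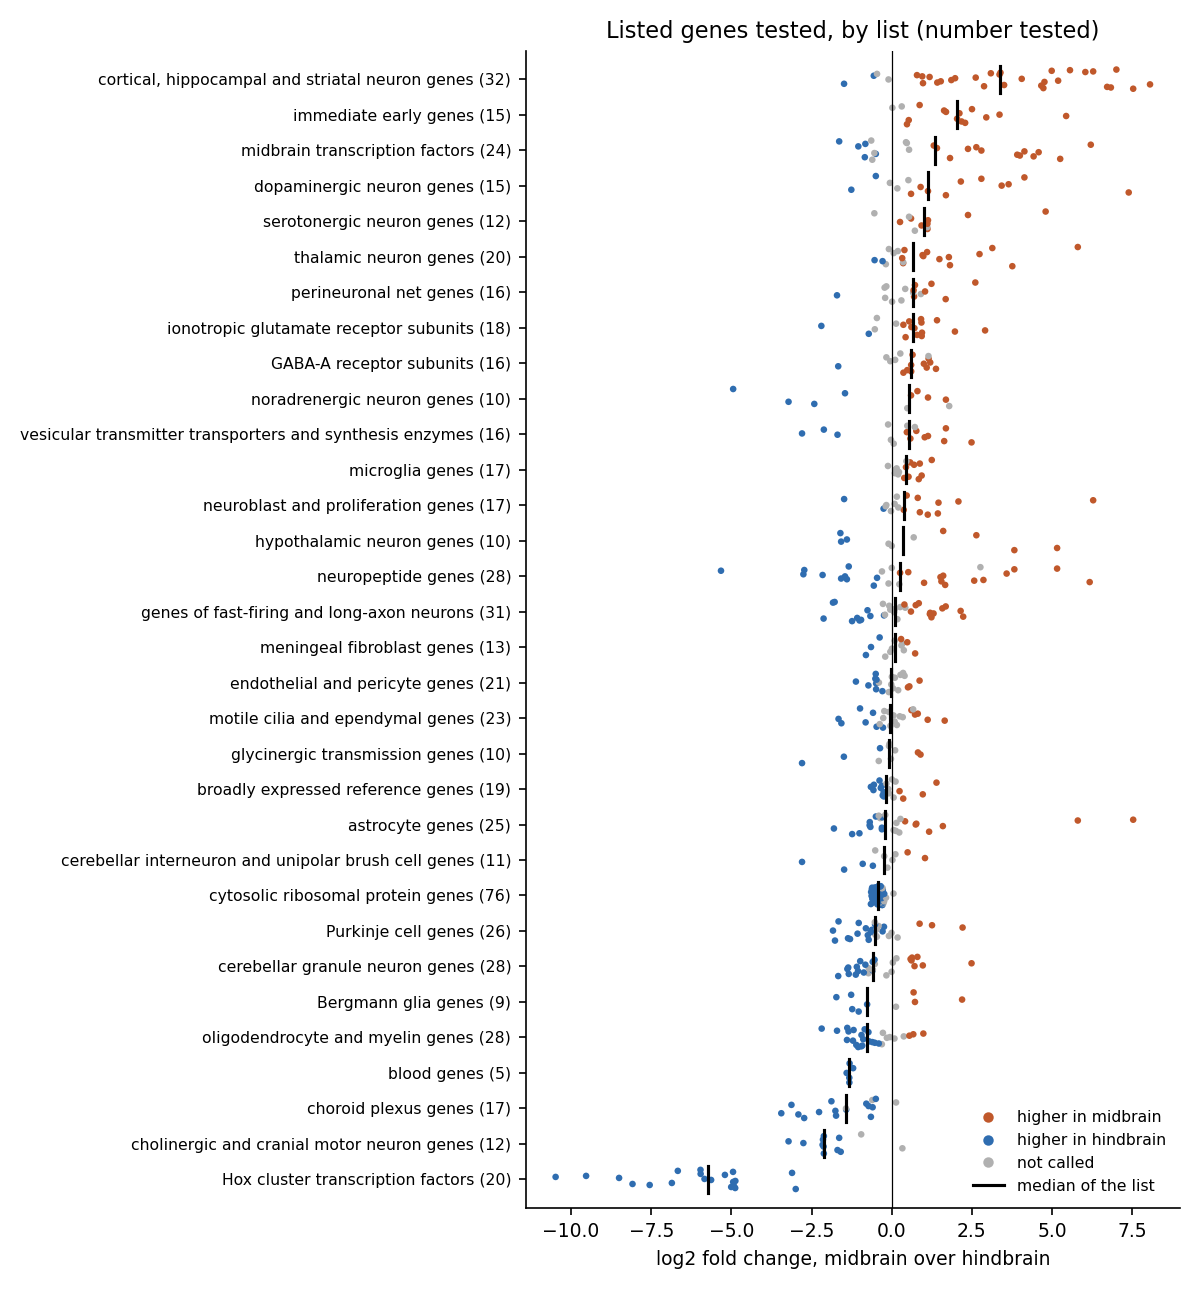
Log2 fold change of midbrain over hindbrain for the tested members of 32 gene lists, each point a gene, coloured by its call, with the median of each list as a black bar and the number tested in brackets. Medians run from -5.74 for the Hox genes to 3.38 for cortical, hippocampal and striatal neuron genes, and most lists hold members on both sides of 0.

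Myelin genes were higher in hindbrain. Of 28 oligodendrocyte genes, 19 were higher in hindbrain, 3 in midbrain and 6 were not called, with a median of -0.78 that lay between -1.05 and -0.57 over the single mice. *Mbp*, myelin basic protein, lay between 12851 and 18726 CPM in hindbrain and between 6570 and 8178 CPM in midbrain (-1.04, SE 0.108), with no overlap. *Klk6*, a protease of oligodendrocytes, differed most (-2.18, SE 0.150). The 3 members higher in midbrain were *Cspg4* (0.99), *Pdgfra* (0.67) and *Gpr17* (0.55), which are genes of oligodendrocyte precursors and newly formed cells. *Olig1*, *Olig2* and *Sox10*, factors of the whole lineage, were not called, at -0.15, -0.06 and 0.09.

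Astrocyte genes did not move together, with 7 of 25 higher in midbrain and 10 in hindbrain. *S100b*, a calcium-binding protein, lay between 699 and 954 CPM in hindbrain and between 199 and 267 CPM in midbrain (-1.80, SE 0.0872), and *Gfap*, the astrocyte filament, was at -1.23 and the water channel *Aqp4* at -1.01. *Slc1a2*, the main glutamate transporter, was higher in midbrain (1.17, SE 0.106), as was *Mfge8* (1.60, SE 0.0985). Microglial genes were higher in midbrain in 9 of 17 and in hindbrain in 0 by edgeR, and in 10 and 0 by DESeq2, with a median of 0.45. The share of this list that edgeR called lay near the 50.6% of all genes tested. *Csf1r*, the receptor microglia need to survive, was at 0.94 and *Laptm5*, a lysosomal protein of leukocytes, at 1.25.

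Choroid plexus genes, which make cerebrospinal fluid, were higher in hindbrain in 14 of 17 and in midbrain in 0, by edgeR as by DESeq2, with a median of -1.42. *Ttr*, the thyroxine carrier made by the choroid plexus, lay between 875 and 3281 CPM in hindbrain (median 1395) and between 155 and 457 CPM in midbrain (median 251), a log2 fold change of -2.73 (SE 0.434, edgeR adjusted p = 0.00115). Its hindbrain values in wild-type replicates 1 and 2 were 3281 and 2629 CPM, and those of the other 4 mice were at most 1398 CPM. *Kcnj13* (-3.44) and *Folr1* (-2.91), a potassium channel and the folate receptor of this epithelium, went with it. The 5 blood genes, all haemoglobin or haem synthesis genes, were all higher in hindbrain, with a median of -1.32. Haemoglobin genes are near-identical copies, and how reads were divided among them is uncertain. Endothelial and pericyte genes (3 higher in midbrain and 8 in hindbrain of 21), meningeal genes (3 and 3 of 13) and ependymal genes (5 and 7 of 23) had medians of -0.01, 0.09 and -0.04. The called shares of these lists lay near the 50.6% of all genes tested. The 7 ependymal genes higher in hindbrain became 3 without wild-type replicate 2, where 7 were higher in midbrain, 3 without Fmr1CRE replicate 3, and 4 without Fmr1CRE replicate 1 or wild-type replicate 1. The 3 meningeal genes higher in midbrain became 1 without Fmr1CRE replicate 2, Fmr1CRE replicate 3 or wild-type replicate 2, and also without the block.

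Immediate early genes, which neurons switch on within minutes of activity, were higher in midbrain in 13 of 15 and in hindbrain in 0, with a median of 2.04; DESeq2 called 14 and 0. *Egr3* lay between 25.7 and 71.0 CPM in midbrain and between 0.580 and 1.55 CPM in hindbrain (5.44, SE 0.343), and *Egr1* between 39.6 and 174 CPM and between 7.06 and 20.3 CPM (2.95, SE 0.227). *Arc*, a synaptic protein of cortical neurons, overlapped, with 23.8 to 152 CPM in midbrain and 13.8 to 24.8 CPM in hindbrain (2.11, SE 0.311). *Fos* differed little between regions (0.48, SE 0.151), but both its libraries were low in wild-type replicates 2 and 3, at 3.62 to 6.33 CPM, and at 17.3 CPM or above in the other mice. In forebrain the list summed to 309 to 1115 CPM, beside 251 to 813 CPM in midbrain and 110 to 207 CPM in hindbrain.

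Of 17 genes of immature neurons and of dividing cells, 9 were higher in midbrain and 2 in hindbrain, with a median of 0.38. *Dcx*, a microtubule protein of migrating neuroblasts, lay between 26.4 and 31.1 CPM in midbrain and between 11.3 and 15.0 CPM in hindbrain (1.13, SE 0.0780). *Sox11* and *Sox4*, factors of new neurons, lay at 1.44 and 0.88. The markers of division *Mki67*, *Top2a* and *Cdk1* were not called, at 0.21, -0.19 and -0.17, and were at most 4.05 CPM in any library.

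Ribosomal protein genes moved together by a small amount: 67 of 76 were higher in hindbrain and 0 in midbrain by edgeR, 69 and 0 by DESeq2, with a median of -0.42, and none passed the 2-fold threshold. The mitochondrial share given above was higher in hindbrain in the same libraries, and its part in this difference was not tested. Reference genes used for normalization were split, with 9 of 19 higher in hindbrain and 4 in midbrain. *Gapdh* lay at 0.06 and was not called, *Ppia* at -0.55 and *Actb* at 0.36.

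Neuropeptide genes gave some of the sharpest contrasts at low levels. Of 28 tested, 13 were higher in midbrain and 10 in hindbrain. *Nmu*, neuromedin U, lay between 1.47 and 3.04 CPM in hindbrain and between 0 and 0.132 CPM in midbrain (-5.32, SE 0.557), and *Npff*, a peptide of the dorsal medulla and spinal cord, was at -2.73. *Cort*, cortistatin, a peptide of cortical interneurons, lay between 2.19 and 3.25 CPM in midbrain and between 0 and 0.111 CPM in hindbrain (6.18, SE 0.519). *Ucn*, urocortin, made in the Edinger-Westphal nucleus of the midbrain, lay between 0.649 and 1.18 CPM and between 0 and 0.160 CPM (3.59, SE 0.443), and its forebrain median was 0.183 CPM.

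Among the 5 most abundant genes past the 2-fold threshold in each direction, those higher in midbrain beside *Camk2a* and *Syt1* were *Cpe*, the peptide-processing carboxypeptidase E (2182 to 2894 against 934 to 1180 CPM, 1.35), *Camk2n1*, an inhibitor of the CaM kinase (1.53), and *Ncdn*, neurochondrin (1.61). Those higher in hindbrain beside *Ttr*, *S100b* and *Pvalb* were *Enpp2*, autotaxin, made by choroid plexus and oligodendrocytes (-1.42), and *Apod*, apolipoprotein D of oligodendrocytes (-1.36). All of these kept the same direction in 6 of 6 mice.

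A set of 3 genes among the 10 largest towards hindbrain rested on part of the mice. *Gm10800*, a short predicted gene on chromosome 2, was at 21.4, 33.6, 46.8, 49.9 and 121 CPM in the hindbrain of 5 mice and at 0.111 CPM in Fmr1CRE replicate 2, and the midbrain libraries lay between 0 and 3.61 CPM. *Gm21738*, on chromosome 14, had 4.77 to 36.0 CPM in the same 5 hindbrain libraries and 0.111 CPM in that of Fmr1CRE replicate 2. *Ctcfl*, a germline paralogue of CTCF on chromosome 2, had 9.93 to 23.2 CPM and 0.960 CPM. The highest midbrain value of all 3 genes was that of wild-type replicate 3. Of the 31-base sequences in their transcripts, 42.0% in *Gm10800*, 43.6% in *Gm21738* and 4.80% in *Ctcfl* also occurred in other genes, so the counts of the first 2 are uncertain. The shared sequences of *Ctcfl* occurred in 1406 other genes. Its highest and lowest hindbrain values were those of the same mice as in the first 2, so its counts may be uncertain too.

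The region effect was then checked within each genotype, with mice that the other check did not use. In the 3 wild-type mice edgeR called 6032 of 18912 genes (31.9%), 3443 (18.2%) higher in midbrain and 2589 (13.7%) in hindbrain. In the 3 Fmr1CRE mice it called 4564 of 18728 (24.4%), 2627 (14%) and 1937 (10.3%). Of 18368 genes tested in both, 5875 were called in wild-type and 4501 in Fmr1CRE mice, and 3501 in both with the same direction, which is 59.6% of the former and 77.8% of the latter. A single gene was called in both with opposite directions. The sign in the other genotype was the same for 97.7% of the wild-type calls, for 98.9% of the Fmr1CRE calls and for 82.5% of all genes tested in both.

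The counts within a genotype depended on the mice. Without wild-type replicate 1 the wild-type mice gave 3003 calls and without replicate 2 they gave 2447, and the Fmr1CRE mice gave 1707 without replicate 1 and 923 without replicate 3. Across the 18368 genes the log2 fold changes of the genotypes had a Pearson r of 0.852, as a description, since genes are not independent replicates. The slope of a mouse's differences on the mean of the other 5 lay between 0.785 in wild-type replicate 3 and 1.16 in wild-type replicate 1, with 0.787 in Fmr1CRE replicate 2.

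Whether the region effect differed between the genotypes was tested as an interaction. edgeR called 0 of 18645 genes, with 1231 (6.6%) at an unadjusted p under 0.05, and DESeq2 called 42. *Fmr1*, whose cis-regulatory element carries the base change, lay between 62.1 and 75.1 CPM in midbrain and between 52.8 and 70.8 CPM in hindbrain, with overlap. Its log2 fold change was 0.12 with a 95% confidence interval from -0.04 to 0.28 (edgeR adjusted p = 0.178). It was higher in midbrain in 5 of 6 mice, with a two-sided exact permutation p of 0.0625, where 0.0312 is the smallest this design allows. Of its paralogues, *Fxr1* was higher in hindbrain (-0.38, SE 0.0634), and *Fxr2* lay at 0.01 with an interval from -0.14 to 0.16.

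**Figure D5:**
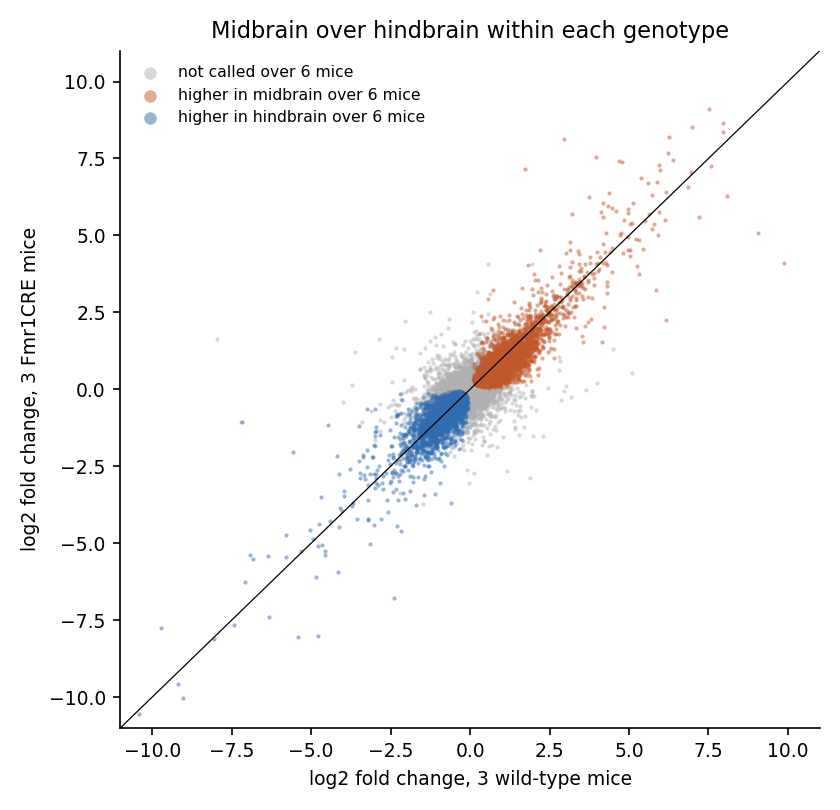
Log2 fold change of midbrain over hindbrain in the 3 wild-type mice (horizontal) and in the 3 Fmr1CRE mice (vertical) for genes tested in both, each point a gene, coloured by its call over all 6 mice, with the line of equal values. The points follow the line at both ends, with a Pearson r of 0.852 across genes.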

How the data were processed

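Poly(A) RNA of dissected midbrain and hindbrain of 3 wild-type and 3 Fmr1CRE mice at P25 was read as single-end reads of 50 bases. The authors estimated counts per transcript with salmon, added them up by gene, rounded the sums and deposited these counts as they were, with no scaling between libraries. The submitters' processing notes name Salmon 0.14.0, DESeq2 1.30.1 and mm10, and the annotation release, any scaling by transcript length and the use of strand are not given in the sources used here. Of 53468 genes, 53431 had a symbol in GENCODE M21 for GRCm38. The 37 others held 0.0151% of the counts. The deposited variance-stabilized values and transcript tables were not used, the former because the copy held few genes and the latter because their names and sample records disagree. Measured columns left unused numbered 0.

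Libraries were grouped by region and paired by the mouse number in the titles. Midbrain and hindbrain residuals correlated across genes between 0.00928 and 0.109 within a mouse and between -0.0922 and 0.0226 across mice. edgeR 4.0.16 in R 4.3.3 was run with TMM, its default filter, mouse as block and the quasi-likelihood test, with glmTreat for the 2-fold threshold, and log2 CPM used a prior count of 2. Standard errors were taken from the fold change and its test statistic. Intervals are at 95% and reflect counting error together with the spread between these mice. Each library held at least 22455512 counts, and the part of depth in the precision of a gene was not tested. Intervals and floors cover counting and sampling error only. The scripts were tested on simulated data.

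The members and the 32 gene lists (626 genes) were chosen with earlier results of these data known. The genes named were, in each direction, the 10 protein-coding genes with the largest difference at 10 CPM or more and the same direction in 6 mice, the 5 most abundant past the 2-fold threshold, up to 4 called genes of each list with its defining members, the Hox and receptor families, and *Fmr1*. Further members were named after their values were seen, and a few named by the rule are not reported here. As alternatives, the block was dropped, each mouse was left out, the filter was dropped or set to 10 counts in every library, scaling used total counts or the size factors of DESeq2 1.42.0, and DESeq2 replaced edgeR. Sequences of 31 bases were compared over annotated transcripts.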

Additional observations from a re-analysis of the deposited data

Results flagged for a closer look

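In 11 of 132 named genes, the difference between the regions in a single mouse stood apart from the other 5 by a test that chance passes in about 1 in 20 groups. Differences are of log2 CPM, midbrain minus hindbrain. In wild-type replicate 1, *Hoxb8* was -5.94 (others -8.72 to -7.73), *Hoxb7* was -5.27 (others -6.87 to -6.46), *Hoxa6* was -2.90 (others -4.43 to -4.10) and *Cdh5*, an endothelial cadherin, was 1.26 (others 0.30 to 0.60). In Fmr1CRE replicate 2, *Pax7* was 0.995 (others 4.04 to 5.68) and *Slc18a2*, the vesicular monoamine transporter, was -0.84 (others 1.03 to 1.69). In wild-type replicate 3, *Fezf2* was 5.68 (others 7.21 to 7.99) and *S100b* was -1.40 (others -1.96 to -1.80). In Fmr1CRE replicate 1, *Slc17a7* was 1.21 (others 2.60 to 2.84) and *Egr4*, an immediate early gene, was 1.53 (others 3.53 to 3.89). In wild-type replicate 2, *Dnah9*, a dynein of motile cilia, was 0.43 (others 1.07 to 1.41). All 11 kept in every mouse the direction they had over all mice, except *Slc18a2* in Fmr1CRE replicate 2.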

How the results depend on the processing

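The region effect stayed within 1.5-fold of its 9428 calls under every alternative run, but the side with more calls did not stay the same. The main excess towards hindbrain (4650 higher in midbrain and 4778 in hindbrain) was also present without the replicate block, with total counts (4282 and 5184) and with at least 10 counts in every library (4318 and 4414). It turned towards midbrain with DESeq2's size factors (4798 and 4558), with no filter (4935 and 4209), in DESeq2 (4857 and 4476) and in all 6 fits with a mouse left out. List counts turned too: with at least 10 counts in every library, midbrain transcription factors gave 5 higher in midbrain and 6 in hindbrain, and without Fmr1CRE replicate 3 granule neuron genes gave 7 and 6. Hypothalamic genes with no filter gave 12 and 3, against 4 and 3 with it. Without the replicate block edgeR called 9762 genes (4744 higher in midbrain and 5018 in hindbrain) and 960 past the 2-fold threshold, with 9103 genes called both with and without the pairing. The number past 2-fold and higher in hindbrain, 203, was 324 with no filter on low counts, 85 with at least 10 counts in every library, and between 142 and 322 with single mice left out, the highest of these without Fmr1CRE replicate 2. A minimum in every library removes genes absent from a region, by construction: 0 of the 20 Hox genes remained, so that list had no median there. With mice left out, the wild-type calls lay between 2447 and 7717 (1877 to 4397 higher in midbrain and 570 to 3320 in hindbrain), and the Fmr1CRE calls between 923 and 3639 (745 to 2200 and 178 to 1439). The difference between genotypes, 0 genes, was 2 with no filter and 42 in DESeq2; the cause was not tested. Of 1539 alternative values of 132 named genes, 1512 kept direction and call, 27 in 6 genes (*Slc18a2*, *Slc6a4*, *Tbx20*, *Chat*, *Col1a1* and *Ccnd2*) lost the call, and 0 reversed. Of the list medians, 3 moved by more than the spread of mice: midbrain transcription factors to -0.03 and cortical, hippocampal and striatal genes to 1.52 at the minimum of 10 counts, and hypothalamic genes to 1.92 with no filter.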
